A study of Mus musculus with 26 samples.

Results

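The response of SOX2 knockout (KO) neural stem and progenitor cells (NSPCs) to dexamethasone (Dex) was read from 14 of the 26 one-colour arrays of a mouse study of glucocorticoid action. These were all arrays labelled SOX2 KO, 7 from vehicle-treated and 7 from Dex-treated cells, and no wild-type array was used at any step. The cells came from the telencephalon of C57BL/6 mice, labelled fetal tissue at postnatal day 0, and were grown with epidermal growth factor and fibroblast growth factor-1 with the cultures of each animal kept apart. After passage 3, each culture received 100 nM Dex, a synthetic glucocorticoid, or its ethanol vehicle for 4 h. The vehicle and Dex arrays thus share the genotype, SOX2 KO, and the growth factors, and differ in Dex. The biological sample numbers 7 to 13 each name 1 vehicle and 1 Dex array, and they are called cultures here. The labels do not say how Sox2 was deleted, in which cells or with which driver. They state that animals of both sexes were used without giving the sex of a culture. The question was which genes differ between Dex and vehicle within a culture labelled SOX2 KO.

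Glucocorticoids cross the cell membrane and bind the glucocorticoid receptor, a transcription factor encoded by Nr3c1 that waits in the cytoplasm with heat shock chaperones. The loaded receptor enters the nucleus and binds glucocorticoid response elements, which are pairs of inverted half-sites, or acts through other factors to lower inflammatory genes. A few hours of hormone mostly reach direct targets, among them genes that damp the receptor itself, clock genes, metallothioneins and metabolic enzymes. Neural stem cells carry the receptor, and in the developing brain glucocorticoids are known to slow their division. SOX2 is a transcription factor that maintains these cells.

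Sox2 itself was below the median gene on all 14 arrays. Its level, on the log2 scale of the deposited values, was 3.95 to 5.48 in vehicle and 3.92 to 6.50 in Dex. The values lay between percentiles 3.07 and 46.8 of the genes on their own array. The highest, in the Dex array of culture 7, was thus close to the median gene. Dex minus vehicle was 0.14 ± 0.17 (SE, n = 7, limma adjusted p = 0.873). Of 22 measured neural stem and progenitor markers, 21 had a mean vehicle level above that of the median gene, as had 12 of 14 astrocyte markers, 5 of 14 neuron markers, 5 of 10 oligodendrocyte lineage markers, 1 of 12 microglia markers, 1 of 10 endothelial markers and 2 of 12 markers of meningeal fibroblasts and pericytes. In these bulk arrays fewer cells of a type and less RNA per cell cannot be told apart. Eif2s3y, a gene of the Y chromosome, had levels of at least 11.82 on both arrays of 2 cultures and of at most 4.46 on both arrays of the other 5, so no number joined a high and a low array. Array medians lay between 6.44 and 6.82.

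The Dex array of culture 12 stood apart. Its median correlation with the other 13 arrays was 0.926, against 0.973 to 0.987 for each of those. Its lower quartile was 5.38 and its upper quartile 9.38, while the other arrays had 4.79 to 5.03 and 9.58 to 10.40, so its values were spread less widely. The SD over genes of Dex minus vehicle was 1.06 log2 units in culture 12 and 0.374 to 0.476 in the others. The main counts over all genes are therefore given with all 7 cultures and with culture 12 left out.

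Dex raised 30 of the 19505 genes tested and lowered 1 in the paired comparison (limma, Benjamini-Hochberg adjusted p threshold of 0.05). These are 0.154% and 0.00513% of the genes. The rises ran from 1.80-fold for Trim9 to 23.3-fold for Fam107a, with a median of 2.63-fold, and 26 were larger than 2-fold. Over all genes 33 (0.169%) were at least 2-fold higher and 2 (0.0103%), Pde1b and Gadd45g, at least 2-fold lower. Without culture 12 these counts were 34 and 0, with Pde1b at -0.98 and Gadd45g at -0.79 log2 units. Each of the 30 genes was higher in 7 of 7 cultures. Over all genes, 1.01% were higher in every culture and 1.49% were lower in every culture. In 13 of the 30 genes every Dex array lay above every vehicle array, against 0.082% of all genes. At an unadjusted p under 0.05 the balance was the other way, with 476 genes higher (2.44%) and 713 lower (3.66%). With no response at all, a share of about 0.05 of genes would reach such a p over both directions. These are therefore not counts of responding genes. The median difference of all genes was -0.02 log2 units, and -0.004 with each array centred on its median or quantile normalized. In culture 7 alone the median difference was -0.16, and in the other cultures -0.03 to 0.06. Of all genes 54.7% had a negative difference, and 59.7% without culture 12. Without culture 12 there were 50 genes higher (0.256%) and 4 lower (0.0205%), and they included all 31 genes called with 7 cultures. In the remaining 6 cultures 1.59% of all genes were higher and 2.68% lower in each. Chance agreement is more frequent in 6 cultures than in 7, so these shares cannot be set against those of 7. Among these 6 cultures every Dex array lay above every vehicle array in 0.159% of all genes and in 16 of the 30. At an unadjusted p under 0.05 there were then 516 genes higher and 882 lower. Without culture 7, 8, 9 or 13 the raised genes numbered 19, 18, 17 and 19, and none was called lower.

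**Figure D1:**
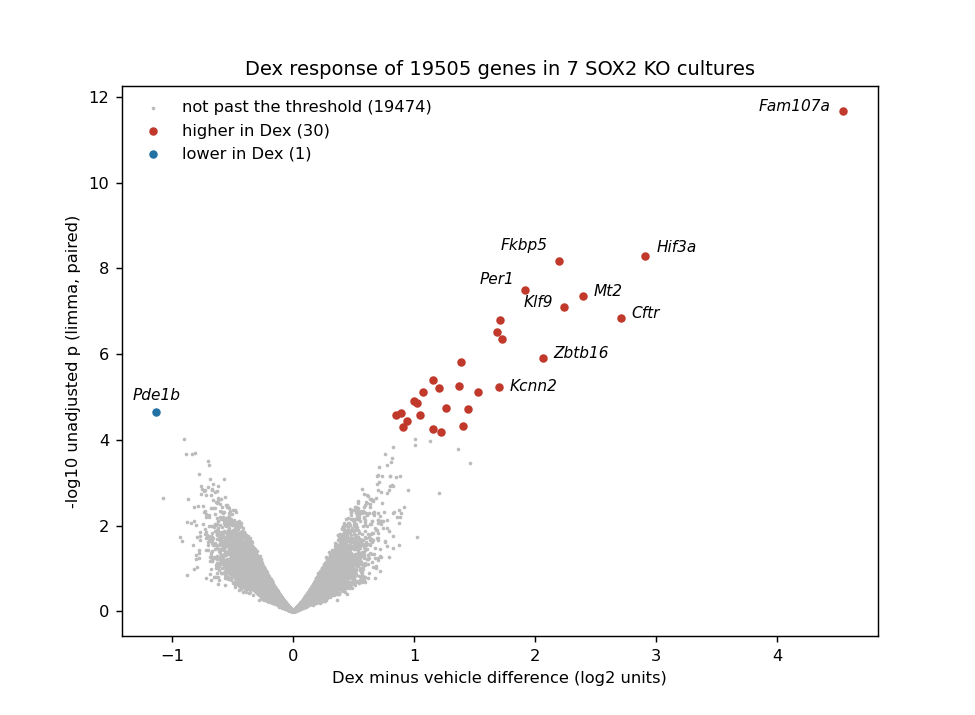
Each point is 1 of 19505 genes, with the Dex minus vehicle difference in log2 units on the x axis and -log10 of the unadjusted paired limma p on the y axis. The 30 genes called higher are red and the 1 called lower is blue. Fam107a stands alone at 4.54 log2 units, and Pde1b is the called gene on the left.

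Fam107a, a stress-inducible gene whose product binds actin, had the largest response. Its lowest, median and highest levels were 4.45, 5.48 and 5.62 in vehicle and 8.93, 9.97 and 10.62 in Dex. The groups lay far apart. The rise was 4.54 ± 0.16 log2 units (SE, n = 7, adjusted p = 4.09e-08), and it ran from 3.99 to 5.00 in single cultures. Map7d2, a microtubule-associated protein, was at 9.14, 9.63 and 9.96 in vehicle and 11.13, 11.38 and 11.49 in Dex. The groups did not overlap, and the rise was 1.71 ± 0.16 (adjusted p = 0.000383). Fam107a and Map7d2 were the 2 called members of the list of 16 cytoskeletal, Fam107 and Map7 family genes, against 0.154% of all genes. The list median was -0.16, against -0.02 over all genes. Fam107b, the paralog of Fam107a, differed by -0.35 ± 0.13 (adjusted p = 0.784) and was lower in 7 of 7 cultures.

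Fam107a and Map7d2 were also the called genes with a match to a loose receptor-type pattern next to an annotated start site, which is why their sequences are shown. Promoter windows from RefSeq (GRCm38.p6) hold 250 bases before and 50 after a transcription start, and were at hand for 25 of the 30 raised genes. They were searched on both strands for a loosely written response element, which reads G, any base, ACA, any 3 bases, TGT, any base and C. It was found in Fam107a and Map7d2. Of all 15691 measured genes with a window, 0.516% held it. Fam107a has 3 windows and Map7d2 has 2, and not every window of either gene held a match. The Fam107a site lies 118 to 106 bases before the transcription start of the window shown, in the 250 upstream bases at chr14:8309780-8310029 on the minus strand. The Map7d2 site lies 11 to 23 bases after the transcription start of its window, and the 30 bases around it are chrX:159459127-159459156 on the plus strand. Both are written 5′ to 3′ with the matching 13 bases in capitals.
Fam107a: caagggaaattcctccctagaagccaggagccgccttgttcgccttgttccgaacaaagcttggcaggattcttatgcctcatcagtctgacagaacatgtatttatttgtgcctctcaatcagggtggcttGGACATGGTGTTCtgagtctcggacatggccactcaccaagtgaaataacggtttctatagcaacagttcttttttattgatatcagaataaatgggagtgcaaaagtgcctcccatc
Map7d2: acaggacaGGACACAGTGTTCacagtctgt

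The strict palindrome, AGAACA and TGTTCT with any 3 bases between them, was in none of the 25 genes and in 2 of all 15691. The single half-site AGAACA, which the strict form contains, was in 6 of the 25 genes and in 18.4% of all. The E-box CACGTG, the letters bound by the clock factors, was in 5 of the 25, among them Per1 and Fkbp5, and in 9.26% of all. The D-box TTATGTAA was in none of the 25 and in 0.988% of all. These are matches of letters in short windows, and receptor binding was not measured.

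Genes of the receptor and its co-chaperones come next. Fkbp5, whose product holds the receptor in a state of low hormone affinity, was at 12.39, 13.04 and 13.47 in vehicle and 14.42, 15.42 and 15.83 in Dex. All Dex arrays were above all vehicle arrays, and cultures 10 and 12 were lowest under both treatments. The rise was 2.20 ± 0.15 log2 units (adjusted p = 4.37e-05). It was the 1 member called of the 16 measured genes of the receptor, its co-chaperones and its ligand enzymes, against 0.154% of all genes. The list median was -0.01, and 0.01 with each array centred on its median or quantile normalized. Nr3c1, the receptor gene, was at 7.63, 7.95 and 8.34 in vehicle and 6.83, 7.43 and 7.80 in Dex. It differed by -0.57 ± 0.18 (adjusted p = 0.69) and was lower in 5 of 7 cultures. The co-chaperone gene Fkbp4 differed by -0.60 ± 0.24 and did not pass either. Fkbp14, a prolyl isomerase of the endoplasmic reticulum that belongs to the same protein family, was at 8.48, 9.13 and 9.43 in vehicle and 9.92, 10.20 and 10.46 in Dex and rose by 1.16 ± 0.15 (adjusted p = 0.006), with no overlap between the groups.

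Like the other lists, the 18 anti-inflammatory and feedback targets were chosen with earlier results of these data known. Of these 3 rose, against 0.154% of all genes, and none fell. In 7 of 7 cultures 6 of the 18 were higher, against 1.01% of all genes. The median was 0.28, against -0.02 over all genes. Nfkbia encodes the inhibitor that keeps NF-kappa-B in the cytoplasm. Its levels were 7.93, 8.18 and 9.41 in vehicle and 8.81, 9.77 and 10.60 in Dex, with some overlap, and it rose by 1.39 ± 0.16 (adjusted p = 0.00242). Tsc22d3, which encodes the glucocorticoid-induced leucine zipper, was at 6.80, 7.44 and 8.39 in vehicle and 8.16, 8.39 and 9.13 in Dex and rose by 1.05 ± 0.16 (adjusted p = 0.0195). Its vehicle range reached into the Dex range, although each culture was higher in Dex, by 0.74 to 1.59. The call was lost when any 1 of cultures 7, 8, 9, 10, 11 or 13 was left out. The other member that rose is the clock gene Per1, described below. Nfkbiz, a nuclear relative of Nfkbia outside this list, rose by 0.94 ± 0.15 (adjusted p = 0.0268).

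The members that did not pass include some of the best known targets. Sgk1, a kinase gene that steroid hormones induce in epithelia, was at 7.92, 8.88 and 10.38 in vehicle and 8.32, 9.23 and 11.55 in Dex. The groups overlapped over most of their range, while each culture was higher in Dex by 0.08 to 1.28 (0.51 ± 0.17, adjusted p = 0.782). Mertk, a receptor kinase for the uptake of dead cells, was at 1.47 ± 0.30 (adjusted p = 0.154). It was higher by 0.50 to 2.46 in 6 cultures and lower by 0.37 in culture 12. Without culture 12 it passed at 1.77 ± 0.21 (adjusted p = 0.00149). Lcn2, a lipocalin gene of the acute phase response, was at 3.76, 4.41 and 4.82 in vehicle and 4.24, 5.86 and 7.02 in Dex (1.36 ± 0.25, adjusted p = 0.0847, and 0.0461 without culture 12).

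The list of transcription factors known to be induced by glucocorticoids was chosen with earlier results of these data known. Of its 21 members 4 were called higher, against 0.154% of all genes. In 7 of 7 cultures 9 of the 21 were higher, against 1.01% of all genes. The list median was 0.37, and 0.315 without culture 12, when the medians of all genes were -0.02 and -0.04. Hif3a encodes a hypoxia-inducible factor subunit that can restrain the other subunits. Its levels were 4.38, 5.19 and 5.75 in vehicle and 7.61, 8.26 and 8.73 in Dex, a rise of 2.91 ± 0.20 log2 units (adjusted p = 4.37e-05) with no overlap. The largest response was in culture 10 and the smallest in culture 13.

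Klf9, a Kruppel-like factor that represses proliferation genes in several tissues, was at 8.21, 9.57 and 10.26 in vehicle and 11.26, 11.74 and 12.11 in Dex. The groups were separate, and the Dex arrays lay closer together than the vehicle arrays. It rose by 2.24 ± 0.20 (adjusted p = 0.000263). Zbtb16, a zinc finger repressor, was at 7.45, 8.12 and 8.91 in vehicle and 8.72, 10.10 and 11.13 in Dex. The overlap came from culture 12, where the rise was 0.60, against 1.74 to 2.79 in the other 6. Its mean rise was 2.06 ± 0.23 (adjusted p = 0.00218), and without culture 12 it was 2.31 ± 0.15 (adjusted p = 1.51e-05). Plagl1, an imprinted zinc finger gene that restrains growth, rose by 1.68 ± 0.17 (adjusted p = 0.000671), from 8.73, 9.80 and 10.76 to 10.49, 11.42 and 12.30.

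Bcl6, a relative of Zbtb16, was higher in 7 of 7 cultures by 0.82 ± 0.15 without passing (adjusted p = 0.0809), and passed without culture 12 (adjusted p = 0.0396). Klf15, known as a glucocorticoid target in muscle and liver and named here after its values were seen, had every Dex array (6.00, 6.40 and 7.11) above every vehicle array (5.48, 5.71 and 5.94). Its difference of 0.66 ± 0.17 did not pass (adjusted p = 0.512).

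Among 22 circadian clock genes 2 rose, against 0.154% of all genes, and none fell, with a median of 0.06. Per1 and Per2 encode repressors of the clock's own activators. Per1 was at 8.89, 9.20 and 10.17 in vehicle and 10.99, 11.28 and 11.45 in Dex, a rise of 1.92 ± 0.15 log2 units (adjusted p = 0.000153). The groups did not overlap, and the 7 Dex arrays spanned less than the 7 vehicle arrays. Per2 was at 6.94, 7.99 and 8.32 in vehicle and 8.22, 9.15 and 10.19 in Dex and rose by 1.22 ± 0.21 (adjusted p = 0.0422). Its rise was 0.31 in culture 11 and 2.01 in culture 12. The call was lost when any 1 of cultures 7, 8, 9, 10 or 13 was left out. The other 20 members did not pass, the nearest by p being the nuclear receptor gene Rora (0.50 ± 0.16, higher in 7 of 7 cultures, adjusted p = 0.693) and the repressor gene Cry2 (0.34 ± 0.16, adjusted p = 0.801). Usp2, a deubiquitinase gene with a daily rhythm in many tissues, is outside the list and rose by 1.15 ± 0.19 (adjusted p = 0.037), by 0.24 to 1.80 in single cultures. With quantile normalization Usp2 did not pass.

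**Figure D2:**
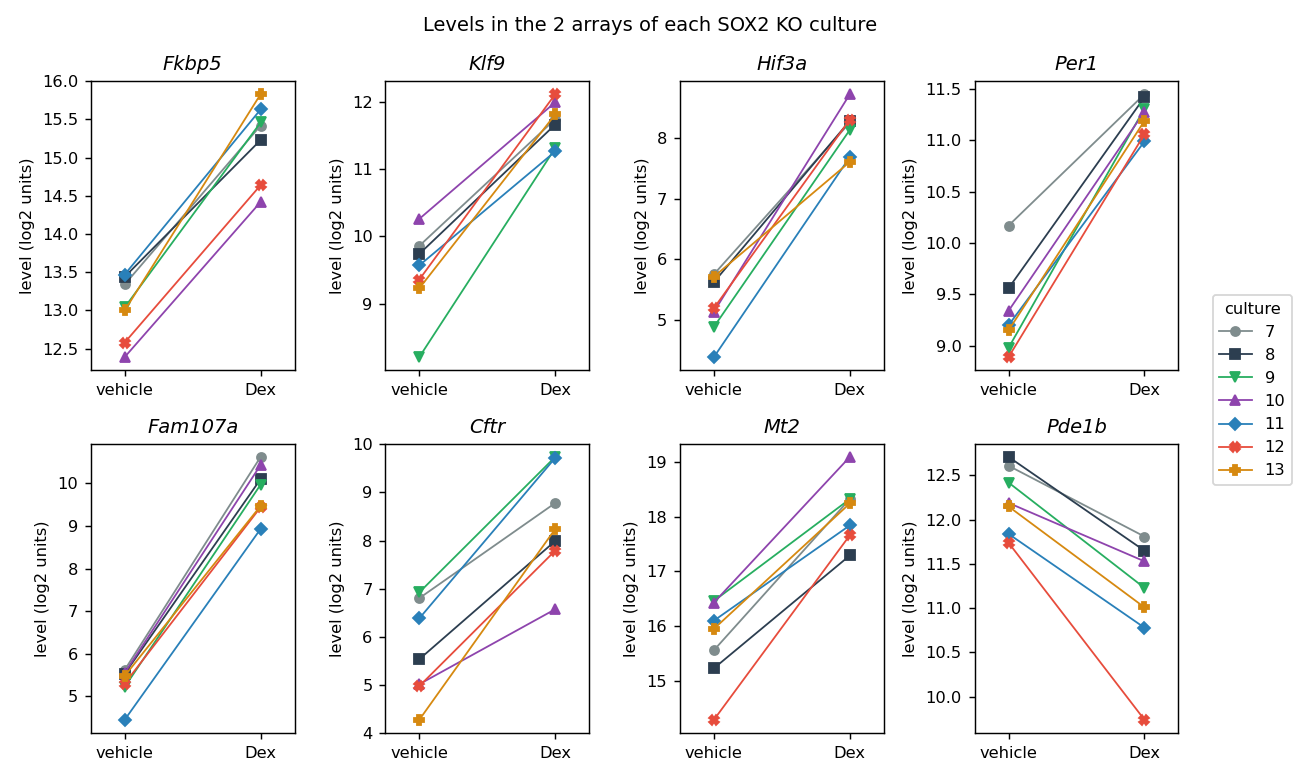
Each line joins the vehicle and the Dex array of 1 culture, with the level in log2 units on the y axis, for 8 genes. In Fam107a, Fkbp5, Klf9, Hif3a, Per1 and Mt2 all Dex arrays lie above all vehicle arrays, in Cftr and Pde1b the ranges overlap, and in Pde1b the Dex array of culture 12 is lowest at 9.74.

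Of 16 ion channel genes and regulators 2 rose, against 0.154% of all genes, and none fell. Cftr, a chloride channel gene, was at 4.27, 5.53 and 6.92 in vehicle and 6.57, 8.24 and 9.74 in Dex. Cultures with high vehicle levels reached as high as the lowest Dex array, yet every culture was higher, by 1.56 to 3.97. The rise was 2.71 ± 0.25 (adjusted p = 0.000383). Kcnn2, a calcium-activated potassium channel gene, was at 7.80, 8.58 and 9.75 in vehicle and 8.19, 10.32 and 11.71 in Dex. It rose by 1.70 ± 0.22 (adjusted p = 0.0076), with 0.39 in culture 12 and 1.39 to 2.45 in the others. Without culture 12 the rise was 1.92 ± 0.16 (adjusted p = 6.23e-05). Its paralog Kcnn3 was lower in 7 of 7 cultures, at -0.62 ± 0.17, and did not pass (adjusted p = 0.529). The epithelial sodium channel gene Scnn1a, a classic steroid target of kidney and lung, differed by 0.50 ± 0.19 (adjusted p = 0.784). Kcnt1, a sodium-activated potassium channel gene outside the list, rose by 1.40 ± 0.23 (adjusted p = 0.0324), by 0.57 to 2.56 in single cultures.

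Mt2, which encodes a metallothionein that binds zinc and copper, was at 14.29, 15.95 and 16.46 in vehicle and 17.29, 18.24 and 19.09 in Dex. There was no overlap, and culture 12 had the lowest vehicle level and the largest rise, 3.37. The mean rise was 2.39 ± 0.20 log2 units (adjusted p = 0.000171). It was the only called member of 15 metallothionein and metal transport genes, against 0.154% of all genes. The list median was 0.03, and 0.07 without culture 12. Its neighbours on the chromosome are Mt1 and Mt3. Mt1 was at 17.30, 18.04 and 18.90 in vehicle and 18.50, 18.79 and 19.62 in Dex, a difference of 0.80 ± 0.18 that did not pass (adjusted p = 0.248). In culture 12 Mt1 differed by -0.03, and without that culture it passed at 0.94 ± 0.14 (adjusted p = 0.0131). Mt3, the brain metallothionein gene, differed by 0.53 ± 0.18 (adjusted p = 0.733). The zinc importer gene Slc39a14 was higher in 7 of 7 cultures, at 0.66 ± 0.17 (adjusted p = 0.509). The highest Mt1 level, 19.62 in Dex, was close to the highest value on any of these arrays, 19.81.

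In lipid, sugar and energy metabolism 2 of 23 genes rose, against 0.154% of all genes, and none fell. The list median was -0.11, and -0.01 without culture 12. Mgll, the lipase gene that breaks down the endocannabinoid 2-arachidonoylglycerol, was at 6.78, 7.39 and 7.89 in vehicle and 8.54, 9.04 and 9.43 in Dex, with separate groups and a rise of 1.73 ± 0.18 (adjusted p = 0.00087). Mfsd2a, a transporter gene for lysophospholipids that carry omega-3 fatty acids, was at 10.65, 11.45 and 12.90 in vehicle and 12.56, 12.94 and 14.09 in Dex. It rose by 1.53 ± 0.21 (adjusted p = 0.00848), and without culture 12 by 1.33 ± 0.15. Cnr1, the gene of the brain's cannabinoid receptor, was lower in 7 of 7 cultures by 0.36 and did not pass (-0.36 ± 0.14, adjusted p = 0.784). Sult1a1, a sulfotransferase gene, was at 1.02 ± 0.37 with all cultures, of which 4.01 in culture 12, and at 0.52 ± 0.12 without it, and passed in neither fit. Outside the list, Thrsp, a gene of fat synthesis, rose by 1.37 ± 0.18 (adjusted p = 0.0076), with 0.41 in culture 7 and 1.31 to 1.96 elsewhere. It did not pass with the culture as a random block (adjusted p = 0.0830). Smox, the spermine oxidase gene, rose by 1.00 ± 0.14 (adjusted p = 0.0125), with no overlap between the groups.

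Of 21 genes of stress, FoxO signalling and growth arrest 1 rose, against 0.154% of all genes. Sesn1, a sestrin gene that restrains mTORC1 signalling, was at 9.46, 10.02 and 10.58 in vehicle and 10.13, 11.29 and 11.79 in Dex, and rose by 1.02 ± 0.15 (adjusted p = 0.0135). The ranges overlapped, and each culture was higher by 0.63 to 1.30. Gadd45g, a growth arrest gene, had the lowest value of the list, -1.08 ± 0.28. It was lower in 7 of 7 cultures and did not pass (adjusted p = 0.488). Its difference was -2.80 in culture 12 and -1.54 to -0.01 in the others, and without culture 12 it was -0.79 ± 0.19 (adjusted p = 0.23).

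**Figure D3:**
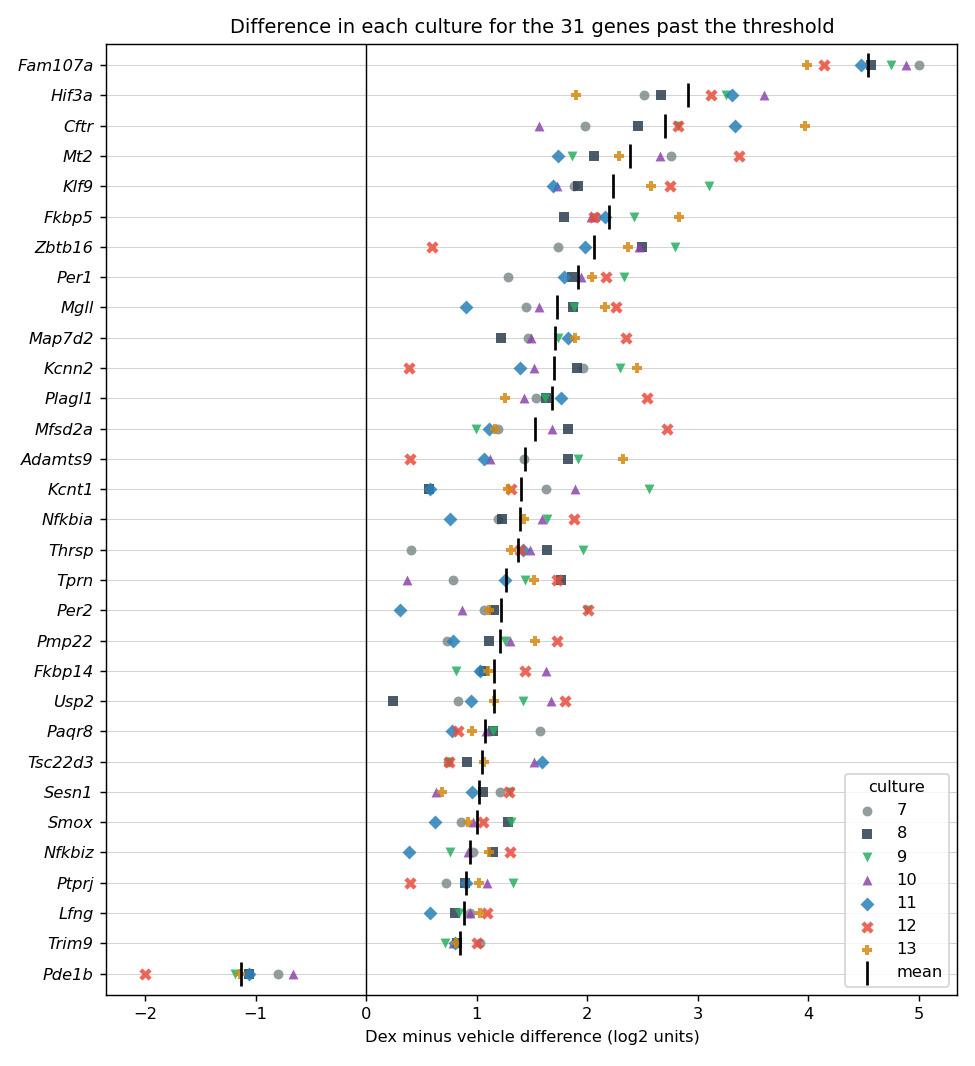
Dex minus vehicle in log2 units in each of the 7 cultures (symbols) for the 31 genes called, ordered by their mean (black bar). All 30 raised genes lie to the right of 0 in each culture, and culture 12 (diagonal crosses) is the smallest for Zbtb16, Kcnn2, Adamts9 and Ptprj and the largest for 11 genes.

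Matrix and Notch genes each had 1 called member. Adamts9, a secreted protease gene of the extracellular matrix, was at 9.38, 9.88 and 10.00 in vehicle and 9.96, 11.42 and 11.75 in Dex and rose by 1.44 ± 0.21 (adjusted p = 0.0169). It was the 1 called member of 29 matrix and protease genes, against 0.154% of all genes. The list median was -0.05, and -0.02 without culture 12. The inhibitor gene Timp4 was higher in 7 of 7 cultures at 0.71 ± 0.15 without passing (adjusted p = 0.175), while the glycoprotein gene Tnc (-0.63 ± 0.17) was lower in 7 of 7 and the laminin gene Lama4 (-0.60 ± 0.21) in 6 of 7, and neither passed. Lfng, an enzyme gene that adds sugars to Notch receptors, was at 12.03, 12.47 and 12.64 in vehicle and 13.03, 13.12 and 13.58 in Dex. It rose by 0.89 ± 0.13 (adjusted p = 0.0187) with separate groups, and was the only called gene of 18 Notch pathway members, against 0.154% of all genes. The Notch feedback gene Nrarp was lower in 7 of 7 cultures at -0.63 ± 0.17 (adjusted p = 0.54) and the target gene Hes5 was at -0.42 ± 0.17 (adjusted p = 0.784).

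Trim9, a brain ubiquitin ligase gene of axon growth, had the smallest rise and also the smallest SD of its response over cultures, 0.12 log2 units. It was at 12.83, 13.30 and 13.52 in vehicle and 13.63, 14.11 and 14.55 in Dex, with no overlap, and rose by 0.85 ± 0.13 (adjusted p = 0.0195), by 0.71 to 1.03 in single cultures. Tprn, which encodes the actin-associated protein taperin, was at 4.97, 5.63 and 6.34 in vehicle and 6.70, 6.88 and 7.52 in Dex and rose by 1.27 ± 0.19 (adjusted p = 0.0169). Pmp22, a myelin and membrane protein gene, rose by 1.21 ± 0.16 (adjusted p = 0.0076). Paqr8, a membrane progestin receptor gene, rose by 1.07 ± 0.14 (adjusted p = 0.00848). Ptprj, a receptor tyrosine phosphatase gene, rose by 0.91 ± 0.15 (adjusted p = 0.034), and did not pass with the culture as a random block (adjusted p = 0.0737). The ranges of Pmp22, Paqr8 and Ptprj overlapped between treatments.

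Pde1b, a calcium-dependent phosphodiesterase gene, was the only gene called lower. Its levels were 11.74, 12.19 and 12.71 in vehicle and 9.74, 11.23 and 11.81 in Dex, so the ranges met, and it was lower in 7 of 7 cultures. It fell by 1.13 ± 0.17 log2 units (SE, n = 7, adjusted p = 0.0187). The difference was -2.0 in culture 12 and -1.19 to -0.66 in the others, and without culture 12 it was -0.98 ± 0.13 (adjusted p = 0.00398). The call was lost when any 1 of cultures 7, 8, 9, 11 or 13 was left out. Of 17 phosphodiesterase genes 13 had a negative difference, against 54.7% of all genes. The list median was -0.17, and -0.10 with quantile normalization. Pde3a was lower in 7 of 7 cultures at -0.84 ± 0.16 without passing (adjusted p = 0.101), and Pde1a was at -0.47 ± 0.17 (adjusted p = 0.784).

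The genes next in line among the falls were chosen by their small paired p. Each was lower in 7 of 7 cultures, as were 1.49% of all genes. Cntnap4, a neural adhesion gene, was at -0.90 ± 0.16 (adjusted p = 0.0553) and passed without culture 12 (-0.82 ± 0.14, adjusted p = 0.0377). Npas4, an activity-induced transcription factor gene, was at -0.88 ± 0.17 (adjusted p = 0.101). Has2, a hyaluronan synthase gene, was at -0.81 ± 0.15 (adjusted p = 0.101) and passed without culture 12 (adjusted p = 0.0461). Col18a1, a basement membrane collagen gene, was at -0.70 ± 0.14 (adjusted p = 0.142).

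Inflammatory genes, a usual target of repression by glucocorticoids, gave no called gene among 21 members, with a median of -0.02, 0.00 with each array centred on its median and -0.09 without culture 12, when the median of all genes was -0.04. Their median vehicle level was 4.65, against 6.71 over all genes, and the labels name no inflammatory stimulus. Ptgs2, the inducible cyclooxygenase gene, was lower in 7 of 7 cultures at -0.58 ± 0.18 and did not pass (adjusted p = 0.682). None of 22 immediate early and MAPK feedback genes passed, and 16 had a negative difference, against 54.7% of all genes. Their median was -0.15, and -0.04 without culture 12. The members of smallest p were the stress gene Ier3 (-0.69 ± 0.21), Ier2 (-0.50 ± 0.19), Spry2 (-0.41 ± 0.16), which encodes an inhibitor of growth factor signalling, and the AP-1 gene Jun (-0.47 ± 0.18). Spry2 was lower in 7 of 7 cultures.

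Growth and division genes were not called. Of 14 genes of the Myc and Max network none passed and 11 were negative, against 54.7% of all genes. The median was -0.14, and -0.075 without culture 12. Myc was at 14.34, 14.81 and 15.40 in vehicle and 13.38, 14.25 and 14.67 in Dex and was lower in 7 of 7 cultures (-0.72 ± 0.21, adjusted p = 0.617). In culture 12 it differed by -2.02, and without that culture by -0.51 ± 0.14. Mycn was lower in 7 of 7 cultures at -0.34 ± 0.15 and Mxd4, a Myc antagonist gene, was higher in 7 of 7 at 0.57 ± 0.14, with neither passing (adjusted p = 0.801 and 0.385). Among 23 genes that license and start DNA replication, 19 were negative, against 54.7% of all genes. Their median was -0.18, -0.16 after centring each array on its median, and -0.13 with quantile normalization or without culture 12. The licensing genes Cdc6 (-0.69 ± 0.26) and Cdt1 (-0.60 ± 0.23) and the helicase gene Gins1 (-0.45 ± 0.17) had the smallest p of the list, each with an adjusted p of 0.784. In culture 12 Cdc6 differed by -2.55 and Cdt1 by -2.03. Without culture 12 the values were -0.38 ± 0.13, -0.37 ± 0.16 and -0.36 ± 0.15. The median of the 21 mitosis genes was -0.06 and that of the 16 D cyclin and CDK inhibitor genes -0.08, with none called. Without culture 12 the mitosis median was -0.04 and the D cyclin and CDK inhibitor median -0.05.

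Stem cell and lineage genes gave no call either. The 11 SOX genes had a median of -0.31, and Sox9 (-0.62 ± 0.19, adjusted p = 0.687) and Sox3 (-0.46 ± 0.20, adjusted p = 0.801) were lower in 6 of 7 cultures. Among 22 neural stem and progenitor markers the median was -0.13, and -0.08 without culture 12. Msi1 was lower in 7 of 7 cultures at -0.33 ± 0.15 (adjusted p = 0.801). The 14 astrocyte markers had a median of 0.07, and 0.02 without culture 12. Gfap, the astrocyte filament gene, was at 0.61 ± 0.20 (adjusted p = 0.71) and Aldoc, a glial aldolase gene, was higher in 7 of 7 cultures at 0.44 ± 0.13 (adjusted p = 0.687). Medians were 0.09 for 14 neuron, -0.24 for 10 oligodendrocyte lineage, -0.02 for 12 microglia, -0.01 for 10 endothelial and -0.11 for 12 meningeal fibroblast and pericyte markers, and -0.03 for 20 Wnt genes. The microglia and endothelial medians turned positive with centring, the Wnt median with quantile normalization, and without culture 12 the neuron median was -0.01, the endothelial median 0.01, the Wnt median -0.05 and the microglia median -0.05. The mean level of the microglia list was 4.48 to 5.10 in vehicle and 4.56 to 5.12 in Dex, and that of the endothelial list 5.13 to 5.34 and 5.06 to 5.41.

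**Figure D4:**
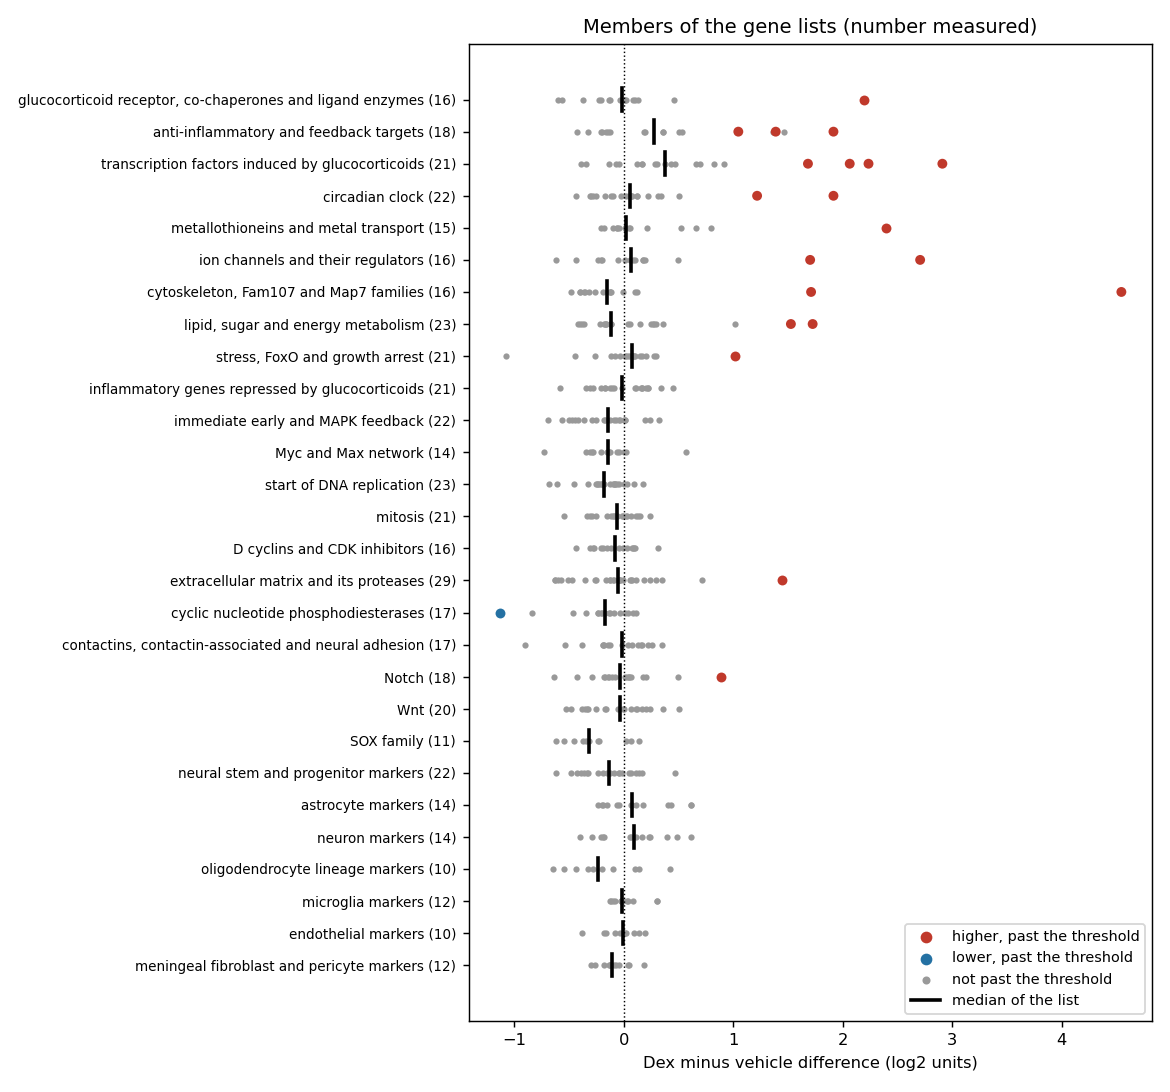
Each point is the Dex minus vehicle difference in log2 units of 1 member of a gene list, and the black bar is the list's median. Called members (red higher, blue lower) run from -1.13 for Pde1b to 4.54 for Fam107a, and the uncalled members at 1.47 and 1.36 in the anti-inflammatory list are Mertk and Lcn2.

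The 30 raised genes, chosen by a paired test on these same cultures, were higher in each culture, and the size of the rise differed. Over all genes 1.01% were higher and 1.49% lower in 7 of 7 cultures. The mean response of the 30 raised genes, which were chosen on these cultures, was 1.41 to 1.83 log2 units per culture, lowest in culture 11 and highest in culture 9. Culture 12 gave the largest response of 11 of the 30 genes and the smallest of 4, and culture 11 the smallest of 9. The SD of a gene's response over the 7 cultures ran from 0.12 to 0.81 log2 units, with a median of 0.39.

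Leaving out culture 12 added 20 raised and 3 lowered genes, most of them named here after their values were seen. Besides Mertk, Lcn2, Bcl6 and Mt1, the rises include the sulfotransferase gene Chst2 (1.58 ± 0.14, adjusted p = 0.00012), the amino acid transaminase gene Bcat1 (1.18 ± 0.13), the survival gene Bcl2l1 (0.98 ± 0.13), the lipid kinase gene Dgkz (1.12 ± 0.17) and Pik3r1 (0.78 ± 0.13), a regulatory subunit of PI3 kinase. In culture 12 itself Chst2 differed by -1.03, Bcl2l1 by -0.31, Pik3r1 by -0.79 and Bcat1 by 0.02. The others were Htr1b (0.91 ± 0.16), Shisa6 (0.97 ± 0.17), Peg3 (0.79 ± 0.14), Rapgef2 (0.69 ± 0.12), Cdh19 (0.76 ± 0.14), L3mbtl3 (0.81 ± 0.15), Jade2 (1.09 ± 0.20), Rcan2 (0.95 ± 0.17), Pip4k2a (0.67 ± 0.12), Zhx3 (1.05 ± 0.19) and Synpo2l (0.78 ± 0.14). The added falls were Cntnap4, Has2 and the interleukin receptor gene Il18r1 (-0.83 ± 0.15, adjusted p = 0.0461).

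Fam107a, Fkbp5, Hif3a, Map7d2 and Per1 passed under all 19 alternatives tried. The looser threshold of 0.1, counted among the 19, could not lose a call. Cftr, Klf9 and Mt2 missed in 1, the paired test without moderation. None of the 31 genes changed sign under any alternative. Leaving out any 1 culture kept 15 of the 31 calls. The 16 others were lost without at least 1 culture, while their log2 values moved by at most 0.24. Leaving out culture 7 lost Adamts9, Kcnn2, Kcnt1, Lfng, Nfkbiz, Pde1b, Per2, Ptprj, Sesn1, Smox, Trim9, Tsc22d3 and Usp2. Leaving out culture 8 lost the same genes except Kcnn2, Kcnt1 and Usp2, and also Mfsd2a, Paqr8 and Tprn. Leaving out culture 9 lost Adamts9, Kcnt1, Lfng, Nfkbiz, Paqr8, Pde1b, Per2, Ptprj, Sesn1, Smox, Tprn, Trim9, Tsc22d3 and Usp2. Culture 10 took Adamts9, Kcnt1, Lfng, Nfkbiz, Per2, Ptprj, Smox, Trim9, Tsc22d3 and Usp2 with it, and culture 11 Adamts9, Pde1b, Ptprj, Sesn1, Tprn, Trim9, Tsc22d3 and Usp2. Culture 13 took Adamts9, Kcnt1, Lfng, Nfkbiz, Pde1b, Per2, Ptprj, Smox, Tprn, Trim9, Tsc22d3 and Usp2. No call was lost without culture 12.

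**Figure D5:**
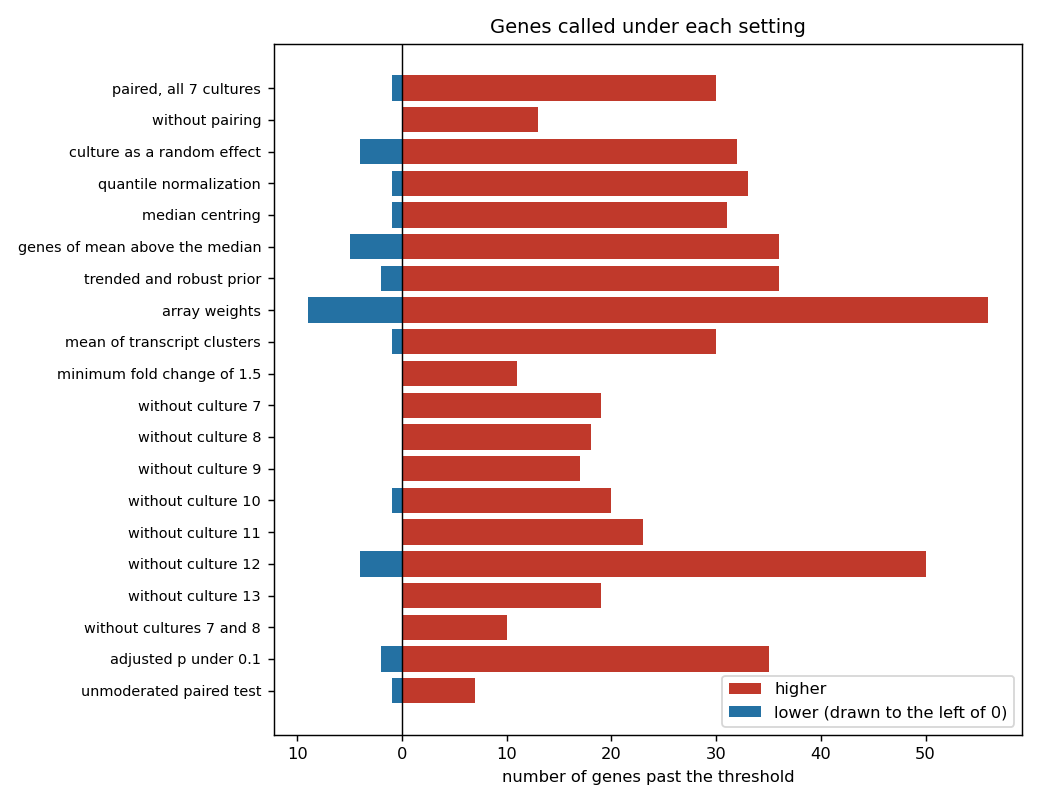
Bars give the number of genes past the threshold, higher to the right and lower to the left of 0, for the paired fit and each of 19 alternatives. The count of raised genes is 30 in the paired fit, 13 without pairing and 50 without culture 12.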

How the data were processed

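RNA was measured on 14 one-colour arrays hybridised with biotinylated cRNA, 7 vehicle and 7 Dex. The authors' deposited values were taken as log2 signal per transcript cluster, from their range of 2.22 to 19.81, and the base of the logarithm, the normalization and any background correction are not given in the sources used here. Wild-type arrays were not used. Of 22206 transcript clusters, 19572 had a gene symbol in the platform annotation. For the 55 genes with several clusters the one of highest mean over the 14 arrays was kept, which left 19505 genes, all found in the RefSeq gene table by Entrez identifier. No filter on low values was applied.

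Dex was compared with vehicle with limma 3.58.1 in R 4.3.3 (lmFit and eBayes), with the biological sample number as a fixed block and Benjamini-Hochberg adjustment over all 19505 genes at a threshold of 0.05. The labels say that the cultures of each animal were kept separate, and each number names 1 vehicle and 1 Dex array. Residuals (each array minus its treatment mean) of the 2 arrays of a number correlated at 0.312 to 0.610 over genes. Between numbers across treatments the median was -0.0989 and the highest value 0.516. Because residuals of a treatment cancel out, positive values within numbers push those between numbers towards negative values. Of the 7 vehicle arrays 5 matched their own number best, as did 5 of 7 Dex arrays. The pairing rests on the labels. The number of arrays limits the precision. The code was tested on simulated data. The text names all called genes, up to 4 members of smallest p in each of the gene lists, the 5 falls of smallest p, Sox2, Nr3c1, Fkbp5, Tsc22d3, Sgk1 and Per1, and says where a gene was named after its values were seen. The members and lists were chosen with earlier results of these data known. Alternatives were no block or a random block, quantile normalization, centring, a filter on dim genes, another prior, array weights, the mean of clusters, a minimum fold of 1.5, a threshold of 0.1, an unmoderated paired test, and leaving out each culture or cultures 7 and 8.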

Additional observations from a re-analysis of the deposited data

Results flagged for a closer look

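Among 105 sets of 7 values, 1 for each culture, 17 held a value farther from the others than Dixon's 95% limit for 7 samples, and in 16 of them it was that of culture 12. Chance gives such a value in about 1 in 20 groups, but that rate is no yardstick here, since the sets share their arrays and 7 of the 17 are genes named because they passed only without culture 12. Of the other 10, culture 12 was apart in 9. Over all 19505 genes 1 culture was apart in 15.6%, and culture 12 in 13.0%. The SD over genes of Dex minus vehicle was 1.06 in culture 12, with the next at 0.476. The median correlation of its Dex array with the other arrays was 0.926, with the next of the Dex arrays at 0.976.

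Culture 12 lay below the other cultures in Dex minus vehicle for Cdc6 (-2.55), Cdt1 (-2.03), Myc (-2.02), Pde1b (-2.0), Cdh19 (-2.0), Spry2 (-1.20), Chst2 (-1.03), Pik3r1 (-0.79), Bcl2l1 (-0.31) and Bcat1 (0.02). The nearest other culture was at -0.61 for Cdc6, -0.82 for Myc, -1.19 for Pde1b, 0.51 for Cdh19 and 1.02 for Chst2. It lay above the others for Sult1a1 (4.01, next 0.72), Plagl1 (2.54, next 1.76), Pip4k2a (2.12, next 0.84) and Rapgef2 (1.64, next 0.82). Thrsp was apart in culture 7 instead, at 0.41 with the next at 1.31. The part of array quality in these values was not tested.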

How the results depend on the processing

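The paired fit called 30 genes higher and 1 lower. Without the replicate block these were 13 and 0, and with the number as a random block 32 and 4. Array weights gave 56 and 9, a minimum fold of 1.5 gave 11 and 0, genes of mean above the median 36 and 5, a trended and robust prior 36 and 2, a threshold of 0.1 35 and 2, and leaving out cultures 7 and 8 10 and 0. Quantile normalization gave 33 and 1, and centring 31 and 1. The unmoderated paired test gave 7 and 1, its lowered gene being Tnfrsf10b (-0.57) and not Pde1b. Leaving out 1 culture at a time gave 17 to 50 higher and 0 to 4 lower, the highest counts being without culture 12. Leaving out a culture leaves fewer arrays, and a minimum fold makes the test stricter. The cause of the differences in count between settings was not tested. Sox2, which is not called, moved from 0.14 to between -0.0083 (without culture 7) and 0.24 (without culture 13) when 1 culture was left out, and to -0.012 without cultures 7 and 8. With 7 pairs and a median SE of 0.18 log2 units over genes, the threshold was reached by no gene under 0.85 log2 units. How far each signal lay above background is not known from the deposited values.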

Other observations

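Of 16 genes in which every Dex array lay above every vehicle array, 3 were not called. They are Klf15, described above, Ahcyl1, a regulator gene of calcium release and ion transport (0.52 ± 0.15, adjusted p = 0.617), and the lipid kinase gene Pip4k2a (0.88 ± 0.19, adjusted p = 0.248). The only gene with every Dex array below every vehicle array was Krtap8-1, a hair keratin-associated gene (-0.47 ± 0.14, adjusted p = 0.617). These 4 were named after their values were seen.

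The SD between arrays was smaller in Dex than in vehicle for 16 of the 30 raised genes (53.3%) and for 36.4% of all genes, given as a description with no test. Both shares include culture 12, whose Dex array had a median correlation of 0.926 with the other arrays. They were not computed without culture 12, and its part in the contrast between the shares was not tested. Of the 30 raised genes, 26 had a vehicle level at or above that of the median gene.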
